A study of Mus musculus with 170 samples.

Results

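A set of 10 transcription factor genes known from endothelium and early blood were followed in single cells of the E9.5 mouse heart. They were chosen by name: the ETS genes Fli1, Erg, Ets1 and Ets2, the SOXF genes Sox7, Sox17 and Sox18, and Tal1 (stem leukemia factor), Lmo2 and Gata2. All 10 had a row among the 40549 genes of the expression table, and none of the 10 was used to sort cells into classes. Cells came from the ventricular part of C57BL/6 hearts, were picked by hand and were sequenced by Smart-seq2, which reads full-length poly(A) RNA. Control hearts are labelled wild type, and the study describes them as Dgcr8 loxP/loxP embryos with a Rosa26 mT/mG reporter and no Cre. The knockout hearts (cKO) are labelled Mesp1Cre/+; Dgcr8-/- and carried the same reporter. Dgcr8 is part of the microprocessor that releases microRNA hairpins, and Cre made from the Mesp1 locus acts in the mesoderm progenitors from which heart muscle, endocardium and vessels descend. Both groups therefore shared the floxed allele, the reporter, the strain and the age, and the study left out cells whose reporter transcripts went against their genotype.

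ETS factors bind DNA through a winged helix domain around a short GGAA core. Erg and Fli1 keep vessels quiescent and stable, whereas Ets1 and Ets2 act downstream of growth factor signals in many cell types. SOXF factors bend DNA through an HMG box and act in arterial and lymphatic fate. Tal1 is a basic helix-loop-helix protein that pairs with E proteins, and Lmo2 is the adaptor that bridges such a pair to GATA factors. Gata2 is the GATA factor of endothelium and blood stem cells. In the mouse embryo Tal1 is needed for blood, and in the heart field endocardium and heart muscle arise from shared Mesp1 progenitors.

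The table held 74 control cells (35 in sequencing batch 1 and 39 in batch 2) and 69 cKO cells (35 and 34). Cell classes were rebuilt from 55 marker genes. The cardiomyocyte-like (CM-like) class held 27 control and 68 cKO cells, with a median of 9302 and 8553 detected genes, and each of these cells had 14 or 15 of 15 cardiomyocyte markers. All 22 endothelial-like cells, with 8 to 13 of 13 endothelial markers, were control cells, as were 13 epicardial-like and 5 erythroid-like cells. The endothelial-like cells also had 3 to 9 of 14 mesenchymal markers (median 7), and epicardial-like cells had 3 to 10 (median 9). The study itself names a joint endothelial/mesenchymal class. The last cluster, led by mitochondrial transcripts, stayed unnamed with 7 control cells and 1 cKO cell. In the cKO these factors could thus be followed in CM-like cells and in the unnamed cell, where none of the 10 was detected. The labels name no embryo or litter, so each genotype was 1 sample, no test between genotypes was run, and SDs and intervals describe cells of these libraries. Within the CM-like class Xist reached a TPM of 1 in no control cell and 64 cKO cells, and Ddx3y in 18 control cells and no cKO cell, so that sex and genotype cannot be told apart. Transcripts of Dgcr8 itself reached a TPM of 1 in 14 of the 27 controls and 21 of the 68 cKO cells of this class.

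Both pairs of the ETS genes are neighbours in the genome (GRCm38, the assembly of mm10, with GENCODE gene bounds). Fli1 lies at chr9:32422204-32542861 on the minus strand and Ets1 at chr9:32636221-32757820 on the plus strand, 93.4 kb apart. Erg lies at chr16:95359169-95586593 (minus) and Ets2 at chr16:95702075-95721051 (plus), 115 kb apart. The SOXF genes are dispersed, with Sox7 at chr14:63943673-63950732 (plus), Sox17 at chr1:4490931-4497354 (minus) and Sox18 at chr2:181669836-181671640 (minus). Tal1 lies at chr4:115056426-115071755, Lmo2 at chr2:103957986-103981878 and Gata2 at chr6:88193891-88207032, all on the plus strand. All 10 are annotated as protein coding.

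RefSeq promoter windows (GRCm38.p6, from 250 bases before to 50 bases after a start, 300 bases each) were matched by symbol for 4 of the 10 genes, with 8 windows in all, for Tal1, Gata2, Erg and Ets2. The other 6 genes are Fli1, Ets1, Sox7, Sox17, Sox18 and Lmo2. Of these, 4 windows are printed because they set genes of unlike pattern in these cells side by side: Tal1 and Erg, each found in a minority of endothelial-like cells, Gata2, found in most of them, and Ets2, found in every class. Capitals mark the matches of 4 motifs, each searched on both strands. The letters of the ETS motif were GGAAG. For the SOX motif they were ACAAT, and for the GATA motif they were AGATAA. The E-box that Tal1 binds with an E protein was spelled CAGATG. No matches overlapped in the windows printed.
Tal1, first start, chr4:115056176-115056475, plus strand: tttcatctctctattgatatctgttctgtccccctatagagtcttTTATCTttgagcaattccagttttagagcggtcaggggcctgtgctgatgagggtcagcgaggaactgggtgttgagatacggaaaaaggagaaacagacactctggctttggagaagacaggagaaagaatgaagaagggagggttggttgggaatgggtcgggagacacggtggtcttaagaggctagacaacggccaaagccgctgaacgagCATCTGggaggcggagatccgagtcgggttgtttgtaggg
Erg, the third start listed, chr16:95459299-95459598, minus strand: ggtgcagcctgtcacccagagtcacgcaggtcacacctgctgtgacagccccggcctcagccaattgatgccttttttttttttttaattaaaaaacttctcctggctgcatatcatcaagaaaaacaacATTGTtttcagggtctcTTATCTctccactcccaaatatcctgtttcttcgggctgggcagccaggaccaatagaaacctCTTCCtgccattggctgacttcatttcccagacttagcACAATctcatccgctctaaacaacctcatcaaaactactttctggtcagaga
Gata2, first start, chr6:88193641-88193940, plus strand: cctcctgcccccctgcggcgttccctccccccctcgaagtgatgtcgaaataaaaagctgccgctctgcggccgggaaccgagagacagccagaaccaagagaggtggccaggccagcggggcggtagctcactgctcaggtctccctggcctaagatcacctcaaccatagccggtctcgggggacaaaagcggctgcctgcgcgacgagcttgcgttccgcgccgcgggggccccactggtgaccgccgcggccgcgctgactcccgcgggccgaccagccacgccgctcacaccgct
Ets2, chr16:95702157-95702456, plus strand: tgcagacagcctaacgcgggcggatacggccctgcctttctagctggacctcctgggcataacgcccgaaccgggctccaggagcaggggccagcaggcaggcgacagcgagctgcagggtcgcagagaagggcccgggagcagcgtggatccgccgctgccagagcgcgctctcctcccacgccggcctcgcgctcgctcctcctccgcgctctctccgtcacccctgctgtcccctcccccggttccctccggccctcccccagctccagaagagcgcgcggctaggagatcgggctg
The Tal1 window printed, at the first of 2 starts, held 1 GATA and 1 E-box match, and the window at the second start held 2 ETS matches only. The Erg window printed is the one with most matches of 3, with 1 ETS, 2 SOX and 1 GATA match, and the others held none and 1 ETS match. Neither Gata2 window nor the Ets2 window held any of the 4 motifs as spelled. The ETS motif searched is longer than the GGAA core. Each window printed also holds an unmarked GGAA or TTCC, its form on the other strand. The letters are common: of 32851 promoter windows of this length, 71.4% held the ETS motif, 31.02% the SOX motif, 11.2% the GATA motif and 17.2% the E-box. A match is a string of letters and not a bound site, and the expression table sums all transcripts of a gene, so it does not show which start a cell used.

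In control hearts most of these genes had a higher mean in endothelial-like than in CM-like cells. The difference exceeded the SD of both classes for Fli1, Ets1, Ets2, Sox7 and Gata2, and not for the others. Values are TPM, a transcript level scaled by length and to a fixed total per cell, and a gene was called detected in a cell at a TPM of at least 1. Ets1 was highest, followed on the log2(TPM + 1) scale by Ets2, Sox7, Fli1 and Gata2, and the remaining 5 genes were each found in 8 or fewer of the 22 cells. Across all genes that passed a filter of TPM above 0 in more than 10 of the compared cells, 20.5% were higher in endothelial-like than in CM-like control cells by at least 1 log2 unit with the same sign in each batch. Of the 10 factors, 8 passed that filter, and 7 of the 8 met the criterion (Fli1, Erg, Ets1, Ets2, Sox7, Tal1 and Gata2). The filter counted cells of both classes together, so a gene could pass through the class where it is high. Gata2 was above 0 in 18 endothelial-like and 2 CM-like control cells, and Tal1 in 9 and 3. The 7 of 8 is therefore a description and not support. The median difference over the 10 was 2.17 log2 units, 2.74 in batch 1 and 2.03 in batch 2, beside a median of 0.29 over all 13130 genes. Sox17 and Sox18 had too few cells with any TPM to pass, and Lmo2 passed with a difference of 0.00. Some cells carried transcripts of the other class: 7 endothelial-like cells had 13 or more of 15 cardiomyocyte markers, in 1 of them at a summed 35983 TPM (36382 TPM in the lowest control CM-like cell), and 2 control CM-like cells had 7 or more of 13 endothelial markers. Without these cells, and 1 such cKO cell, the median difference over the 10 was 2.31.

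**Figure D1:**
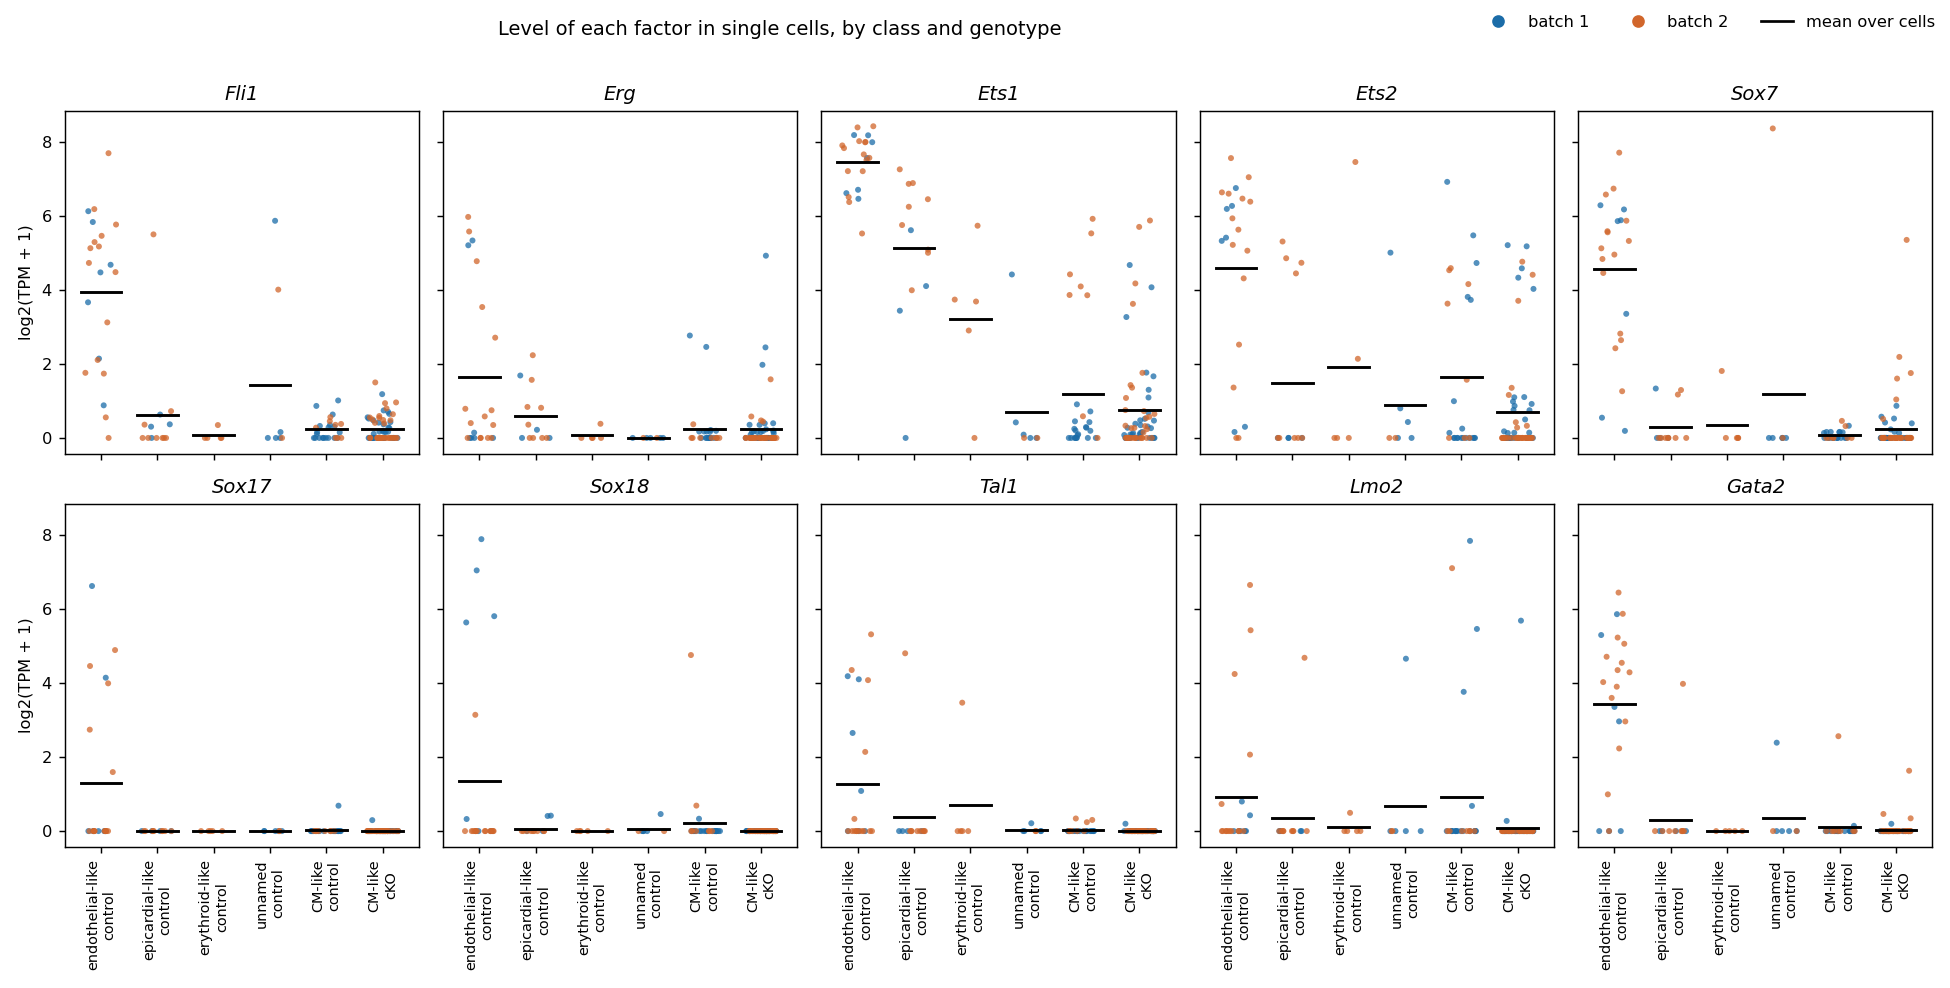
Each point is 1 cell, placed by its log2(TPM + 1) on the y axis and by class and genotype on the x axis, with the sequencing batch by colour and the mean over cells as a black line (the 1 unnamed cKO cell, with none detected, is not drawn). Ets1 fills the endothelial-like class and most of the epicardial-like class, Fli1, Sox7 and Gata2 are high mainly in endothelial-like cells, and Lmo2 has a few high cells in CM-like controls.

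Ets1, a growth factor responsive ETS activator of vessel sprouting, was detected in 22 of 22 endothelial-like cells. Its TPM ran from 45.3 through a median of 197 to 345, and the class mean on the log2(TPM + 1) scale was 7.46 ± 0.78 (SD, n = 22 cells), the narrowest spread of the 10 genes in this class. The level was 7.40 in batch 1 and 7.49 in batch 2. Only 2 of 27 control and 2 of 68 cKO CM-like cells reached the lowest endothelial-like value, so the classes overlapped only at that edge.

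Outside the endothelium Ets1 was highest in epicardial-like cells. Epicardial-like cells had a mean of 5.14 ± 1.96 with 12 of 13 cells detected, below the endothelial-like mean by 2.32 log2 units, which is more than either SD. Erythroid-like cells, all of batch 2, had 3.22 ± 2.08, with 4 of 5 cells detected. The epicardial-like and erythroid-like means differed by less than the larger SD. The control CM-like mean was lower when batches were pooled (1.19 ± 1.92, with 19 of 27 cells from batch 1). In batch 2 alone it was 3.54 ± 2.15, above the erythroid-like mean and within its SD, and the epicardial-like mean was 5.96 ± 1.08. Epicardial-like cells had detected Ets1 in 3 of 4 cells of batch 1 and 9 of 9 of batch 2.

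Control CM-like cells split by batch in Ets1. None of 19 cells of batch 1 reached a TPM of 1, with a highest value of 0.878, and a count of 0 there allows up to 15.8% of cells. In batch 2, 6 of 8 cells reached it, with TPM between 13.5 and 59.96. Every control CM-like cell with detected Ets1 thus came from batch 2. The same 6 batch 2 cells had 3 to 7 of 13 endothelial markers detected, and 5 of the 6 had 4 or 5 of 7 erythroid markers, mostly globins. Epicardial markers numbered 1 to 5 of 6 in them, with 4 and 5 in the cells of highest Ets1 (45.4 and 59.96 TPM). The cell at 59.96 TPM had 7 of 14 mesenchymal markers, which is also the median of endothelial-like cells. In batch 1 control CM-like cells had at most 2 epicardial and 3 mesenchymal markers. The batch 2 control CM-like cells without detected Ets1 had 1 and 2 endothelial, 4 and 0 epicardial and no erythroid markers. In batch 2 cKO CM-like cells erythroid markers had a median of 2.5 of 7, with 5 in a cell whose Ets1 was 0 TPM. The summed TPM of the endothelial markers in control CM-like cells had a median of 8.89 in batch 1 (range 3.10 to 233) and 89.2 in batch 2 (range 11.9 to 274), against 945 to 4964 in endothelial-like cells. Of the 13 markers, Cdh5, Flt1 and Cd93 were undetected in every control CM-like cell, whereas Pecam1 was detected in 26 of the 27, Egfl7 in 14, Cd34 in 12, Ecscr in 10 and Icam2 in 9, and the other 5 markers in 1 to 5 cells. The part of transcripts from other cells in the Ets1 values was not tested.

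Ets2, the widely expressed relative of Ets1, was found in more control CM-like cells than any other of the 10. It was detected in 18 of 22 endothelial-like cells, with a median TPM of 45.3 and a highest value of 189, and its mean log2(TPM + 1) was 4.60 ± 2.58. It was detected in 10 of 27 of those cells, up to 121 TPM, in 4 of 13 epicardial-like cells and in 2 of 5 erythroid-like cells, where 1 cell reached 176 TPM. The highest control CM-like value was exceeded in 2 of 22 endothelial-like cells. The order of class means after the endothelial-like class was erythroid-like (1.92), control CM-like (1.65), epicardial-like (1.49), unnamed control (0.89) and cKO CM-like (0.70), and no neighbours in it, the endothelial-like class included, differed by more than the larger SD. That order rested on the batches pooled: in batch 2, which held all erythroid-like cells, the means were 2.31 in control CM-like, 2.15 in epicardial-like and 1.92 in erythroid-like cells.

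Fli1, an ETS factor of endothelium and megakaryocytes, was detected in 19 of 22 endothelial-like cells (86.4%, 95% interval 65.1 to 97.1%). Its TPM ran from 0 through a median of 23.1 to 208, with a mean log2(TPM + 1) of 3.96 ± 2.11, and the batch means were 3.98 and 3.95. All 19 detected cells exceeded every CM-like cell of either genotype, since the highest CM-like values were 1.02 TPM in control and 1.83 TPM in cKO cells. Traces below the threshold were common in CM-like cells: Fli1 was above 0 in 15 of 27 control and 31 of 68 cKO cells. In the order of class means the step below the endothelial-like class was to the unnamed control cells (1.44 ± 2.46), where 2 of 7 cells carried it.

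Erg, the closest relative of Fli1, was detected in far fewer endothelial-like cells, 7 of 22 (31.8%, 13.9 to 54.9%). In those cells its median TPM was 36.1, with a range of 5.56 to 62.2, so that cells either had a clear level or almost none. The class mean of 1.64 ± 2.27 exceeded the control CM-like mean of 0.25 ± 0.69 by 1.40 log2 units, less than its SD across endothelial-like cells. Fli1 was detected in 6 of the 7 Erg cells. Endothelial-like cells with Erg had a median of 7881 detected genes and those without it 9404, with overlapping ranges (5593 to 14139 and 6342 to 10574).

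Sox7 was the SOXF gene detected in the most endothelial-like cells. It was detected in 20 of 22 endothelial-like cells (90.9%, 70.8 to 98.9%), with a median TPM of 36.7 and a highest value of 210, and in 0 of 27 control CM-like cells, a count that allows up to 11.1%. The mean log2(TPM + 1) was 4.56 ± 2.09 against 0.08 ± 0.13. The highest control CM-like value, 0.377 TPM, was exceeded in 21 of 22 endothelial-like cells. The 2 endothelial-like cells without Sox7 were both of batch 1 and had 8 and 10 of 13 endothelial markers, the lowest numbers in the class.

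Sox17, an arterial and endodermal SOXF factor, was detected in 7 of 22 endothelial-like cells, with TPM of 2.03 to 98.2 where detected. It was undetected in all 27 control CM-like, 68 cKO CM-like, 13 epicardial-like, 5 erythroid-like and 8 unnamed cells, and its highest value outside the endothelial-like class was 0.610 TPM. Among these 10 genes and these 143 cells it was the only one detected in a single class.

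Sox18, known for lymphatic and vascular development, depended on the batch. It was detected in 4 of 7 endothelial-like cells of batch 1, at 49.1 to 238 TPM, and in 1 of 15 of batch 2, at 7.85 TPM. The mean log2(TPM + 1) was 3.82 ± 3.56 in batch 1 and 0.21 ± 0.81 in batch 2. The pooled difference from CM-like cells of 1.14 log2 units came apart into 3.80 in batch 1 and −0.47 in batch 2, where 1 control CM-like cell had 26.2 TPM. The batch 1 endothelial-like cells also had more detected genes (median 10293 against 8538) and more cardiomyocyte markers (12 to 14 of 15, against 4 to 15 in batch 2). All 4 batch 1 cells with Sox18 had 13 or 14 cardiomyocyte markers, and the batch 1 cells without it had 12 or 14. The part of detected genes and of cardiomyocyte transcripts in the Sox18 values was not tested.

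Gata2 was detected in 17 of 22 endothelial-like cells (77.3%, 54.6 to 92.2%), with a median TPM of 14.7 and a highest value of 86.7. Its mean log2(TPM + 1) was 3.45 ± 2.08 against 0.10 ± 0.49 in control CM-like cells, where 1 cell reached 4.93 TPM. The gap of 3.10 log2 units to the next class in order, the unnamed control cells, exceeded the SD of both. Erythroid-like cells had none of it in 5 of 5 cells.

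Tal1 was detected in 8 of 22 endothelial-like cells (36.4%, 17.2 to 59.3%), at 1.12 to 39.1 TPM. These were 4 of 7 cells (57.1%) in batch 1 and 4 of 15 (26.7%) in batch 2. No CM-like cell of either genotype reached a TPM of 1, and the highest values there were 0.266 in control and 0.148 in cKO cells. One of 5 erythroid-like cells had Tal1, at 10.1 TPM, together with 7 of 7 erythroid markers.

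Lmo2 was the exception among the 10. It was detected in 4 of 22 endothelial-like cells, all of batch 2, and in 4 of 27 control CM-like cells. The 4 CM-like values were 12.6, 43.3, 138 and 230 TPM, and the 4 endothelial-like values ran from 3.20 to 100 TPM, so that the highest Lmo2 level of the table was in a CM-like cell. That cell had 1 of 13 endothelial markers, no erythroid marker and no other blood marker (of 8: Ptprc, Itga2b, Pf4, Gp1bb, Csf1r, Fcer1g, Lyz2 and Cd68). The cell at 43.3 TPM had 10 of 13 endothelial markers, the cell at 138 TPM had 6 and the cell at 12.6 TPM had 2. The class means of 0.93 ± 1.94 and 0.92 ± 2.27 did not differ beyond their spread, and the difference was −0.76 in batch 1 and 0.39 in batch 2.

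Endothelial-like cells also stood above epicardial-like cells, which carry markers of the outer layer of the heart. In that comparison 12.8% of 11527 genes met the same criterion, and 6 of the 10 factors passed the filter and met it (Fli1, Erg, Ets1, Ets2, Sox7 and Gata2). Some passed mainly through endothelial-like cells, so this count too is a description. Gata2 was above 0 in 18 endothelial-like cells and 1 epicardial-like cell, Sox7 in 22 and 3, and Ets2 in 20 and 4. The difference was largest for Sox7 at 4.27 log2 units and was 3.35 for Fli1. All 10 factors were higher in both batches, although Sox17, Sox18, Tal1 and Lmo2 were above 0 in 10 or fewer of these cells.

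The factors combined differently from cell to cell. Endothelial-like cells had 5.77 ± 1.54 of the 10 detected (range 2 to 9), epicardial-like cells 2.00 ± 1.78 (0 to 7), control CM-like cells 0.93 ± 1.04 (0 to 3) and cKO CM-like cells 0.59 ± 0.72 (0 to 2). Ets1, Fli1, Sox7 and Gata2 were detected together in 14 of 22 endothelial-like cells, and with Ets2 in 13. Sox17 and Sox18 were both found in 2 cells and either in 10. Tal1, Lmo2 and Gata2, whose proteins can sit in 1 complex, were detected together in 1 of 22 cells, at 39.1, 100 and 3.71 TPM. That cell had the lowest Ets1 of the class, no Fli1 and no Ets2, and 5593 detected genes, the fewest of the class. The cell with the fewest factors carried Ets1 and Tal1 alone. With amplified reads and no molecular identifiers, a transcript absent from a cell may have been missed, so the numbers of cells with all members of a set may be too low.

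**Figure D2:**
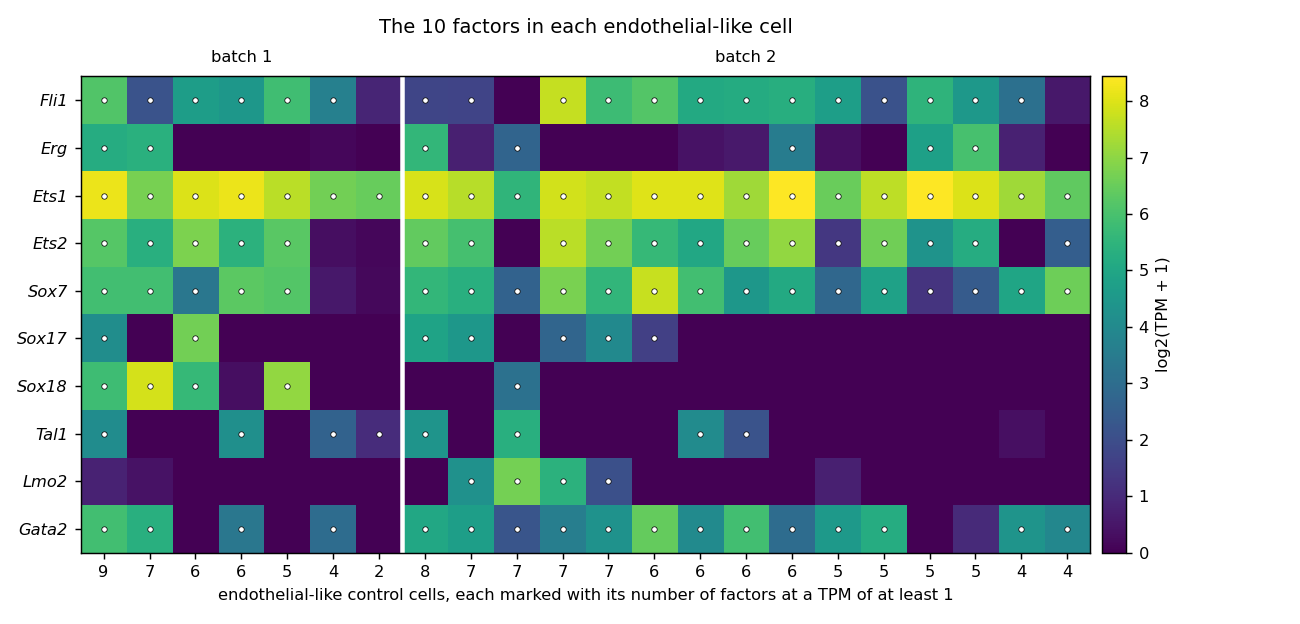
Each column is 1 of the 22 endothelial-like control cells, ordered by batch and by its number of detected factors, which is written under it. Rows are the 10 factors, colour is log2(TPM + 1), and white dots mark a TPM of at least 1. Ets1 runs through all 22 columns, whereas Sox18 sits mostly in batch 1 and Lmo2 in batch 2.

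**Figure D3:**
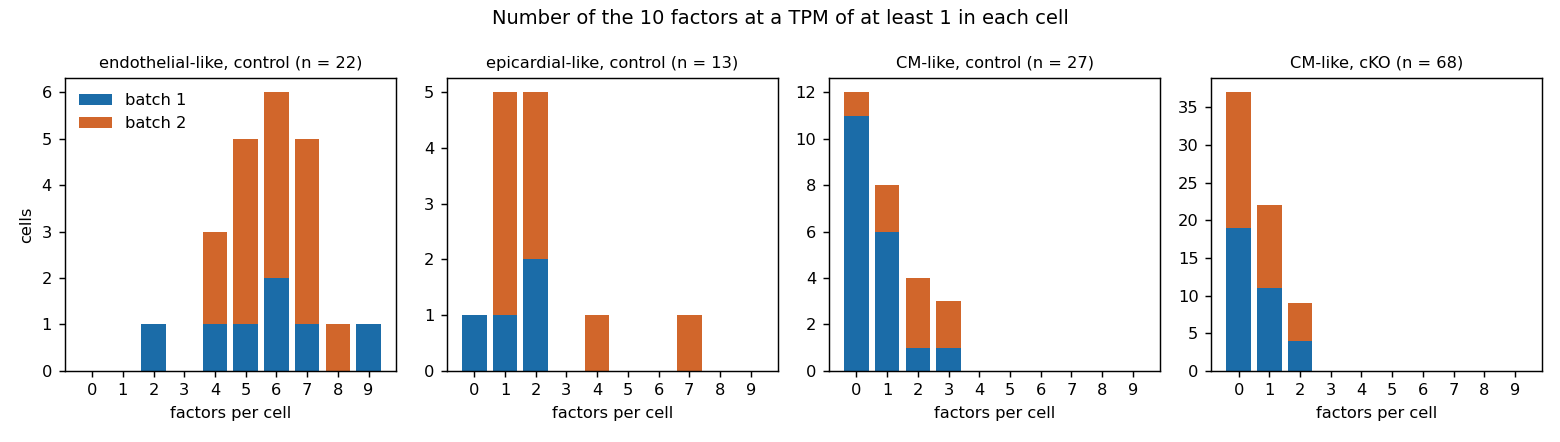
Histograms give the number of cells (y axis, stacked by batch) against the number of the 10 factors detected at a TPM of at least 1 (x axis) in 4 groups of cells. Endothelial-like cells range from 2 to 9, while no CM-like cell exceeds 3 in control or 2 in cKO.

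The loss of Dgcr8 was next examined in CM-like cells, the class present in both genotypes, to see whether factors of the endothelial and blood programme appeared there. None of the 10 differed between cKO and control CM-like cells by 1 log2 unit or more with the same sign in both batches. Over all 15080 genes that passed the filter, 5.89% were higher in cKO by this criterion and 6.46% were lower. Of the 10 factors 5 passed the filter (Fli1, Erg, Ets1, Ets2 and Sox7). The median difference over the 10 was −0.05 log2 units, beside 0.04 over all genes. It was 0.00 in batch 1 and −0.18 in batch 2, where the medians over all genes were 0.15 and −0.20.

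Pooled over batches 8 of the 10 differences were below 0 and 2 above. Fli1, Erg and Sox7 were higher in cKO in both batches, in part by amounts near 0. In batches 1 and 2 Fli1 differed by 0.002 and 0.006, Erg by 0.04 and 0.04, and Sox7 by 0.03 and 0.27 log2 units. Pooled, Erg was −0.02. Ets2, Sox18, Lmo2 and Gata2 were lower in both batches, Gata2 by only −0.002 in batch 1, and Sox18, Lmo2 and Gata2 did not pass the filter. The largest pooled differences were those of Ets2 (1.65 ± 2.25 in control and 0.70 ± 1.46 in cKO, difference −0.95) and Lmo2 (0.92 ± 2.27 and 0.09 ± 0.69, difference −0.83), and both were smaller than the SD across control cells.

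Ets1 moved in opposite directions in the batches. In batch 1 it was 0.20 ± 0.26 in 19 control cells and 0.66 ± 1.17 in 34 cKO cells, a difference of 0.45. In batch 2 it was 3.54 ± 2.15 in 8 control cells and 0.88 ± 1.58 in 34 cKO cells, a difference of −2.66. The pooled shares of detected cells were nearly equal, 6 of 27 (22.2%, 8.62 to 42.3%) and 15 of 68 (22.1%, 12.9 to 33.8%), while the batch shares were 0 of 19 and 7 of 34 in batch 1 and 6 of 8 and 8 of 34 in batch 2. Among cKO cells the 2 batches were alike in this gene, and the batch contrast lay in the controls.

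**Figure D4:**
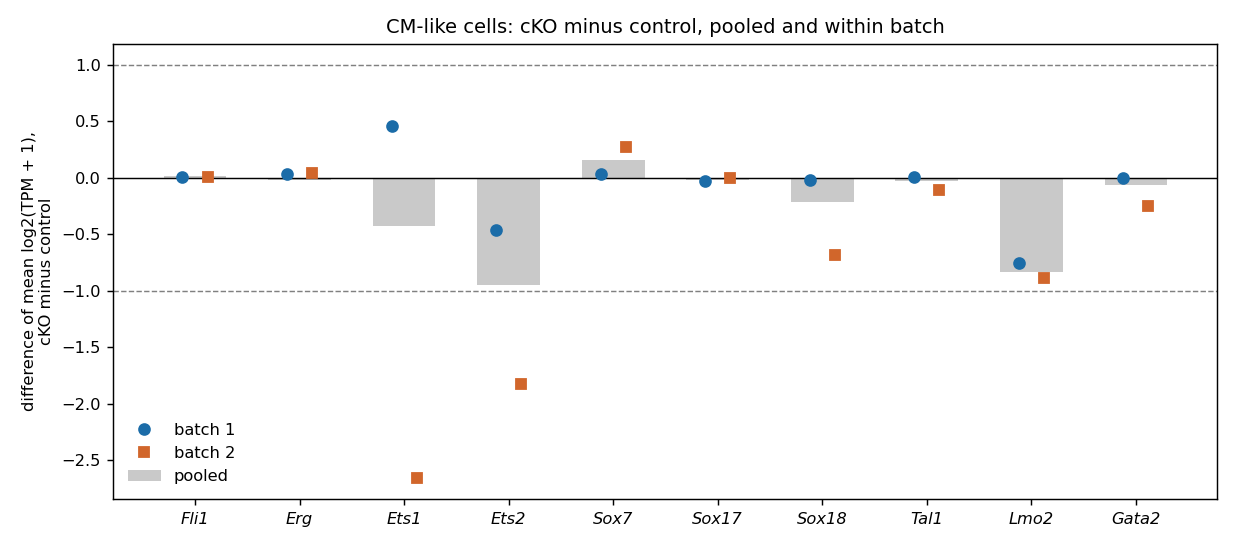
The y axis gives the difference of mean log2(TPM + 1), cKO minus control CM-like cells, for each of the 10 factors on the x axis, with bars for the pooled value, circles for batch 1, squares for batch 2 and dashed lines at 1 unit either way. No bar reaches a dashed line, and Ets1 lies above 0 in batch 1 and far below it in batch 2.

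Most of these factors were each found in few cKO CM-like cells, with 12 and 15 cells for Ets2 and Ets1 and at most 5 of 68 for any other. At least 1 of the 10 was detected in 31 of 68 cKO cells (45.6%, 33.5 to 58.1%) and in 15 of 27 control cells (55.6%, 35.3 to 74.5%), with overlapping intervals that cover counting error only. The control share differed by batch, with 8 of 19 cells (42.1%) in batch 1 and 7 of 8 (87.5%) in batch 2, against 15 of 34 (44.1%) and 16 of 34 (47.1%) in cKO. Leaving out Ets1 and Ets2, which many cell types use, these numbers were 12 of 68 (17.6%, 9.47 to 28.8%) and 7 of 27 (25.9%, 11.1 to 46.3%). No cKO cell had more than 2 factors. Of the 9 cells with 2, 4 carried the pair Ets1 and Ets2, and each of 5 other pairs was seen in 1 cell.

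At a TPM of 1, Sox7 was the only factor detected in cKO and not in control CM-like cells. It reached a TPM of 1 in 5 of 68 cKO cells (7.35%, 2.43 to 16.3%), all in batch 2, against 0 of 27 control cells. Within batch 2 these were 5 of 34 (14.7%) against 0 of 8, a count that allows up to 37.5%, so a difference was not detectable at this number of cells. At any TPM above 0 Sox7 was found in 9 of 27 control and 14 of 68 cKO cells. The lower 4 of the 5 values lay between 1.06 and 3.57 TPM and 1 was 40.1 TPM. The cell at 40.1 TPM carried none of the other 9 factors and 2 of 13 endothelial markers, and 1 of the 5 cells had 6 endothelial markers. In endothelial-like cells the median was 36.7 TPM, which 1 of 68 cKO cells reached.

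The other endothelial and blood factors were rarer still in the cKO. Fli1 was detected in 2 cells at 1.27 and 1.83 TPM, and the cell at 1.83 TPM had 7 of 13 endothelial markers, the most of any cKO cell. Erg was detected in 4 cells, 3 of them between 2.00 and 4.47 TPM and 1 at 29.5 TPM. That last cell also held the only detected Lmo2 of the cKO, at 50.8 TPM, with 3 endothelial markers. Gata2 was detected in 1 cell at 2.10 TPM. Sox17, Sox18 and Tal1 were detected in 0 of 68 cells each, a count that allows up to 4.41%, and Sox18 had no TPM above 0 in any of them.

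**Figure D5:**
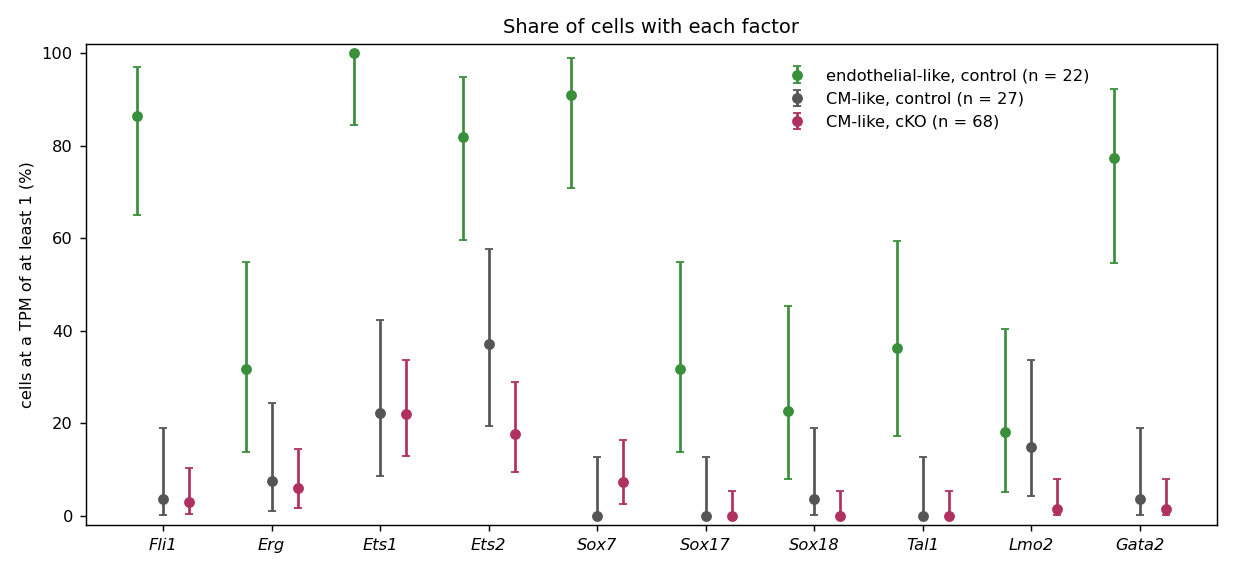
Points give the percentage of cells with a TPM of at least 1 (y axis) for each factor (x axis) in endothelial-like control, CM-like control and CM-like cKO cells, with exact 95% binomial intervals as bars. The endothelial-like interval lies above both CM-like ones for Fli1, Ets1, Ets2, Sox7, Sox17, Tal1 and Gata2, and for all 10 factors the intervals of the 2 CM-like groups overlap.

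Markers of other cell types were compared in the cKO cells that carried one of the 8 factors other than Ets1 and Ets2. These 12 cells had a median of 3 of 13 endothelial markers (range 2 to 7) and a summed endothelial marker level of 78.6 TPM (25.5 to 249). The other 56 cKO cells had a median of 3 (1 to 5) and 54.4 TPM (2.76 to 439). Erythroid markers had a median of 2 of 7 in the first and 1 in the second, and detected genes a median of 8403 and 8686. Of the 13 endothelial markers, Cdh5 and Cd93 were undetected in all 68 cKO cells, whereas Pecam1 was detected in all 68, Egfl7 in 34, Cd34 in 30, Ecscr in 25 and Flt1 in 18, and the other 6 in 2 to 9 cells. The ranges overlapped in each measure, and the part of transcripts from other cells was not tested.

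Related genes gave a similar account in CM-like cells. Of 22 other ETS genes 17 passed the filter, none met the criterion in either direction, and their median difference was −0.08 log2 units. Etv5, a Fgf-responsive ETS gene, had the largest at 0.92 (1.32 ± 2.13 in control and 2.23 ± 2.47 in cKO, with 8 of 27 and 33 of 68 cells detected), and it was 0.91 in batch 1 and 0.68 in batch 2. Elf1 (0.42) and Elf4 (0.31) followed, each with opposite signs in the batches, and Gabpa had the lowest at −0.999, with 0.04 in batch 1 and −2.59 in batch 2.

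Of 16 other SOX genes 8 passed and none met the criterion, with a median of 0.08. Sox4, a SOXC factor of progenitors, differed by 0.56 (0.68 in batch 1 and −0.08 in batch 2), Sox12 by 0.53 and Sox5 by 0.34, and Sox9, the cartilage and valve factor, was lowest at −0.08. No control cell of 27 and 8 of 68 cKO cells had detected Sox5. Of 15 partners of the Tal1 complex 10 passed and none met the criterion, with a median of 0.02. Ldb1, which binds Lmo2, differed by 0.36 (0.66 in batch 1 and −0.63 in batch 2), Ssbp2 by 0.28 and Gata3 by 0.10, while Tcf4, an E protein that pairs with Tal1, was lowest at −0.85, with −0.90 in batch 1 and −0.95 in batch 2.

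Endothelial effector genes, many of them known ETS or SOXF targets, were 25, of which 19 passed. One of the 19 met the criterion, and it was lower, where 6.46% of all genes were. This gene, Efnb2, the arterial ephrin, had 2.28 ± 1.95 in control and 1.08 ± 1.80 in cKO cells, a difference of −1.21 (−0.67 in batch 1 and −2.32 in batch 2). The median over the 19 was −0.01. Pecam1, an adhesion molecule of endothelium, had the largest difference at 0.91 (2.38 ± 0.87 and 3.29 ± 1.20, with 0.69 in batch 1 and 0.97 in batch 2). Flt1, a receptor for Vegf, differed by 0.81 and reached a TPM of 1 in no control cell and in 18 of 68 cKO cells. Egfl7 differed by 0.27, with 1.64 in batch 1 and −2.28 in batch 2. Pecam1, Flt1 and Egfl7 are among the markers that sorted the cells.

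The same lists were counted in endothelial-like against CM-like control cells. Among other ETS genes 4 of 17 met the criterion (Etv2, Etv5, Elf1 and Elk3) and among other SOX genes 2 of 7 (Sox4 and Sox11), shares near the 20.5% of all genes. Etv2, the factor that starts the endothelial programme, was detected in 18 of 22 endothelial-like, 2 of 27 control CM-like and 1 of 68 cKO CM-like cells. Among partners of the Tal1 complex 5 of 9 met it (Tcf4, Tcf12, Lmo4, Cbfa2t3 and Gata3). Gata3 was detected in 21 of 22 endothelial-like cells, a larger number than Gata2 with 17, and Lmo4 in 22 of 22, where Lmo2 had 4. Of the 15 effectors that were not sorting markers 12 passed and 11 met it. Because the filter counted both classes together, a gene could pass through endothelial-like cells alone. Dll4 did so, with a mean of 0 in control CM-like cells, so these counts are a description and not support. Names in this paragraph beyond the fixed ones were chosen after their values were seen.

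Genes with a pattern like that of a factor were sought over all 74 control cells by Pearson's r of log2(TPM + 1), among 12672 genes, as a description without a test. Points share libraries and cell classes, and an r here mostly reflects which class a cell belongs to. Fli1 was nearest to Flt4 (r = 0.82), the receptor of lymphatic and early vessel growth, then Tie1 (0.81) and Gngt2 (0.78). Sox17 was nearest to Cped1 (0.67), Plcb3 (0.66) and Cav2 (0.64), and Tal1 to Gimap1 (0.69), Rela (0.63) and Laptm5 (0.57). Lmo2 had the weakest likeness, with Zfp346 (0.57), Mutyh (0.49) and Itgb5 (0.49), none of which stood above CM-like cells by 1 log2 unit in the endothelial-like class.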

How the data were processed

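The authors deposited TPM values (transcript abundance by length, scaled to a fixed total) per gene and cell, made with Salmon against mm10 with the reporter sequences added, after they kept cells with a high mapping rate. The version of Salmon and the annotation release were not given in the sources used here. TPM sums per cell ran from 996133 to 999999, so depth is unknown and detected genes per cell was its only stand-in. TPM divides by the cell's total, so abundant transcripts lower all others, and without molecular identifiers duplicate reads remain. The 143 columns were matched by title to 170 labelled samples, with 27 of the samples not analysed here. Every column was distinct. Cells were picked by hand and doublets were not called, so whether cells with markers of several classes were mixtures was not tested.

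Cells were clustered by Ward linkage on z-scored log2(TPM + 1) of 55 markers (15 cardiomyocyte, 13 endothelial, 14 mesenchymal, 6 epicardial and 7 erythroid) into 5 clusters. A cluster took a class name with 3 or more markers at least 1 log2 unit above other cells and detected in most of its cells, unless its 10 leading genes held more markers of another class. Shares have exact Clopper-Pearson 95% intervals, and a share of 0 allows up to 3 cells of the total. Both cover counting error only. Differences are of mean log2(TPM + 1) with a pseudocount of 1, which understates low genes. The calculation was checked on simulated normal values with large known shifts. Those values lacked the many zeros of these factors, so the check does not show how small differences in sparse genes behave. The 10 factors were all named, as were, of each related list, the 3 genes with the largest and the 1 with the smallest cKO minus control difference among those that passed the filter, and for Fli1, Sox17, Tal1 and Lmo2 the 3 genes of most like pattern with TPM of at least 1 in 10 or more control cells. Factors, lists and markers were chosen with earlier results of these data known. Alternatives were other pseudocounts, detection thresholds, batches, cluster numbers and cell filters. Python 3.11.15, pandas 2.3.3 and scipy 1.17.1 were used.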

Additional observations from a re-analysis of the deposited data

Results flagged for a closer look

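The 4 values below came from unnamed or epicardial-like control cells. The Sox7 value lay above every endothelial-like and CM-like control cell, and the 3 numbers of factors lay above those of CM-like control cells (at most 3) but within the range of endothelial-like cells (2 to 9). The highest Sox7 of the table, 331 TPM, was in an unnamed control cell of batch 2 with 4415 detected genes, against at most 210 TPM in endothelial-like and CM-like control cells. This cell also had Fli1 at 15.2 TPM, 4 of 13 endothelial markers, 4 of 7 erythroid markers, none of the 8 other blood markers and 31.4% mitochondrial transcripts.

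An epicardial-like control cell of batch 2 had 7 of the 10 factors: Fli1 (44.5 TPM), Erg (3.72), Ets1 (53.3), Ets2 (20.9), Tal1 (27.1), Lmo2 (24.8) and Gata2 (14.8), but no Sox7, Sox17 or Sox18. It had 5 of 8 other blood markers, with the platelet gene Pf4 at 56954 TPM and Itga2b at 490 TPM, beside 5 of 6 epicardial, 7 of 13 endothelial and 5 of 7 erythroid markers. It was the only epicardial-like cell with detected Fli1, Tal1, Lmo2 or Gata2, and it was kept in the values of that class. An unnamed control cell of batch 1 had 4 factors (Fli1 57.8, Ets2 31.3, Lmo2 24.4 and Gata2 4.25 TPM) with Fcer1g at 565 and Ptprc at 33.7 TPM. A second epicardial-like cell of batch 2 also had 4 factors, Ets1 at 75.4, Ets2 at 38.8, Erg at 1.97 and Sox7 at 1.46 TPM, with 2 of 8 other blood markers.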

How the results depend on the processing

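No paired analysis was possible because the labels pair no cells and no test was run. The median difference of cKO minus control over the 10 factors was within its spread between batches in 11 of 12 alternatives and −0.18 in batch 2 alone. The number of factors higher in cKO in each batch, 3, became 5 in batch 1 alone, and 1 with 4 clusters or with cells of at least 8000 detected genes. With 4 clusters the unnamed cells join the CM-like class, among them the cell with the highest Sox7. The median difference of endothelial-like minus CM-like cells (2.17) was 3.38 with a pseudocount of 0.1, 0.94 with 10, 3.37 as a log2 ratio of mean TPM, 2.74 in batch 1 alone and 3.15 over the factors that passed the filter. The factors with a pooled difference of at least 1 there, counted without the filter or the sign in each batch, were 9. They became 5 with a pseudocount of 10. The cKO CM-like cells with at least 1 factor, 45.6%, became 91.2% at any TPM above 0 and 20.6% at a TPM of at least 10. The mean number of factors per endothelial-like cell (5.77) ranged from 4.68 to 6.59. Sox18 in endothelial-like minus CM-like cells was −0.47 in batch 2 alone and 0.03 without cells carrying many markers of the other class (at least 7 of 13 endothelial markers in a CM-like or 13 of 15 cardiomyocyte markers in an endothelial-like cell). That filter and the one at 8000 genes were added after seeing the data. For single factors, 105 of 110 alternative cKO minus control differences moved by less than the SD across control cells. That SD is wide beside most of these differences, and 92 of the 110 kept the sign of the main setting. The causes of these shifts were not tested. Each genotype was 1 sample with unknown depth per cell, so sparse factors such as Tal1 and Lmo2 can be missed in cells that express them.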
